A study of Oryza sativa with 6 samples.

Results

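Drought-stressed and well-watered leaves of Apo, a rice genotype that the submitters describe as drought tolerant, were set against each other on 3 two-colour arrays. These are the arrays titled Apo replicate 1 to 3, 3 of the 6 in the series. The other 3 carry the same comparison in IR64, described by the submitters as drought susceptible, and serve here for contrast. Plants of both genotypes stood in a greenhouse. In the stressed groups of Apo and IR64 water was withheld from 33 days after sowing, and leaves were taken after 5 days by the sample labels and 6 days by the series text, while leaves of the well-watered Apo and IR64 groups were taken 37 days after sowing. No other treatment or allele is named in the labels. Nothing there says that the replicates are separate plants, so the p-values reflect sample-to-sample spread that could be technical.

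Rice leaves that lose water make abscisic acid (ABA). Bound to its receptors the hormone blocks a clade of protein phosphatases, which frees kinases of the SnRK2 family to activate bZIP and other transcription factors of water-deficit genes. LEA proteins and dehydrins, small hydrophilic proteins, then build up and protect membranes and other proteins, and light capture, chlorophyll synthesis, water channels and growth are commonly adjusted as well.

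Each array gave 1 log ratio per probe between the RNAs of stressed and well-watered leaves. Values are given as deposited, on the log10 scale that Agilent Feature Extraction writes; the base is not recorded with them. Which RNA is the numerator is not settled either. The labels put the well-watered RNA in Cy5 and the stressed RNA in Cy3 on every array, and the software writes red over green, but whether the submitters turned the ratio is not given in the sources used here. Ratios are therefore called positive or negative as deposited, and no gene was used to choose a direction. With 1 dye orientation, a dye effect of a probe cannot be told apart from a drought effect in the Apo ratios. The values carry no level, so neither the leaf label nor the distance from background could be checked, and fewer cells of a type and less RNA per cell cannot be told apart.

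The Apo arrays correlated with each other at 0.865 to 0.927 across the 17727 annotated probes tested. The IR64 replicate 1 array stood apart from its group: its correlations were 0.832 to 0.894 with Apo, against 0.755 and 0.767 with IR64 replicates 2 and 3. The count of differences and some comparisons with IR64 are therefore also given without it, and the others include it. Within Apo, replicates 2 and 3 were the closest: over the 4184 probes called at a mean size of at least 0.301, which is 2-fold if the base is 10, their median gap was 0.0394, against 0.0988 between replicates 1 and 2 and 0.0855 between replicates 1 and 3. Apo replicate 2 listed 1074 tested probes at exactly 0, against 151 and 261 on Apo replicates 1 and 3.

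In Apo, 8890 of 17727 probes, or 50.1%, passed limma's moderated test against 0 at a Benjamini-Hochberg adjusted p under 0.05. The positive calls made up 24.5% of all probes and the negative calls 25.6%, and the median ratio of all probes was -0.00318; the gene lists below are read against these shares. The 3 Apo arrays had the same sign on 73.2% of probes. The calls had a median size of 0.285 and a median SD over the 3 arrays of 0.0544. A mean of 1 or more, which is 10-fold if the base is 10, was reached by 210 positive and 127 negative calls. Values below are means ± SD over the 3 Apo arrays unless single arrays are given, and "passed" refers to this test.

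The 20 largest positive ratios among named genes were led by the membrane proteins LTI6B and OsPM19L1 and included genes of many kinds. LTI6B (LOC4337750), a small hydrophobic protein of the plasma membrane, stood at 2.04, 2.0 and 1.91 on Apo replicates 1 to 3, and OsPM19L1 (LOC4338635), a membrane protein known from drying seeds, at 1.99, 2.08 and 1.82. No array of Apo gave either of them a ratio under 1.8. Isocitrate lyase (ICL), the entry enzyme of the glyoxylate cycle, read 1.75, 1.58 and 1.57, and the early nodulin-like OsELA3 1.61, 1.66 and 1.61. Of these genes OsELA3 spread least over the arrays. At rank 9 the lectin-like Osr40c1 averaged 1.51 ± 0.0472 (adjusted p = 6.42e-06), a ratio of 32.4 if the base is 10. It was followed by RAB16D and SMR1 (1.39 ± 0.148), the homeodomain factor HOX24 (1.37 ± 0.0352), the metallothionein MT21A (1.35 ± 0.209), the calmodulin-like CML15 (1.34 ± 0.144), the LEA protein EM and the chloroplast protease OsFTSH6 (1.30 ± 0.0964). HSP26.7, OsSAPK1, the CCCH zinc finger protein OsC3H37 (1.25 ± 0.194) and OsSAPK9 closed the list at means of 1.29, 1.26, 1.25 and 1.24. RAB16D had the widest spread of the 20, with 0.986, 1.80 and 1.40 on the 3 arrays, replicate 1 being the lowest. All 20 remained past the test without any 1 of the 6 arrays.

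The 20 largest negative ratios among named genes were led by LIS and MT2B and were likewise of many kinds. Linalool synthase (LIS, LOC4328124), which makes a volatile terpene, read -1.81, -1.69 and -1.62 on Apo replicates 1 to 3, and the metallothionein MT2B (LOC4326409) -1.60, -1.56 and -1.52. Both were below -1.5 on all 3 arrays, although the second probe of MT2B averaged only -0.175 ± 0.151. The translation factor eIF-4G was among them through 1 of its 5 probes, which read -1.29, -1.49 and -1.49; of the others 2 passed on the positive side, at 0.130 and 0.282, and 2 did not pass, at 0.168 and 0.0504. Those 2 positive calls of eIF-4G were lost whichever Apo array was left out (adjusted p = 0.0531 to 0.170). OsPHO1;3, of a phosphate export family, read -1.73, -1.29 and -1.18, with replicate 1 the most negative. Ranks 9 to 20 began with the plasma membrane water channel OsPIP2;7 at -1.19 ± 0.165, the glutamate receptor-like channel GLR3.1 at -1.16 ± 0.0757 and the light-harvesting protein CAB2R at -1.12 ± 0.266. The actin-nucleating formin FH15 (-1.11 ± 0.318), the chloroplast alarmone synthase CRSH2 (-1.10 ± 0.248), the light-harvesting protein RCABP69 (-1.08 ± 0.0470) and the thioredoxin OsTrx03 (-1.07 ± 0.0994) came next. The heat shock factor HSFC1A (-1.07 ± 0.123), the lipid transfer protein LTP110-A (-1.07 ± 0.527), granule-bound starch synthase GBSS1 (-1.03 ± 0.0155), the ammonium transporter AMT1-2 (-1.02 ± 0.0331) and allantoinase OsALN (-1.02 ± 0.102), an enzyme of purine breakdown, completed the 20. LTP110-A was the least certain of them: its arrays read -1.61, -1.04 and -0.554, and it passed (adjusted p = 0.0127) with all arrays but not without Apo replicate 1 (adjusted p = 0.0810) or Apo replicate 2 (0.0535). For GLR3.1 the other 2 probes did not pass, at 0.0350 and -0.0982, so the large ratio rests on 1 probe.

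**Figure D1:**
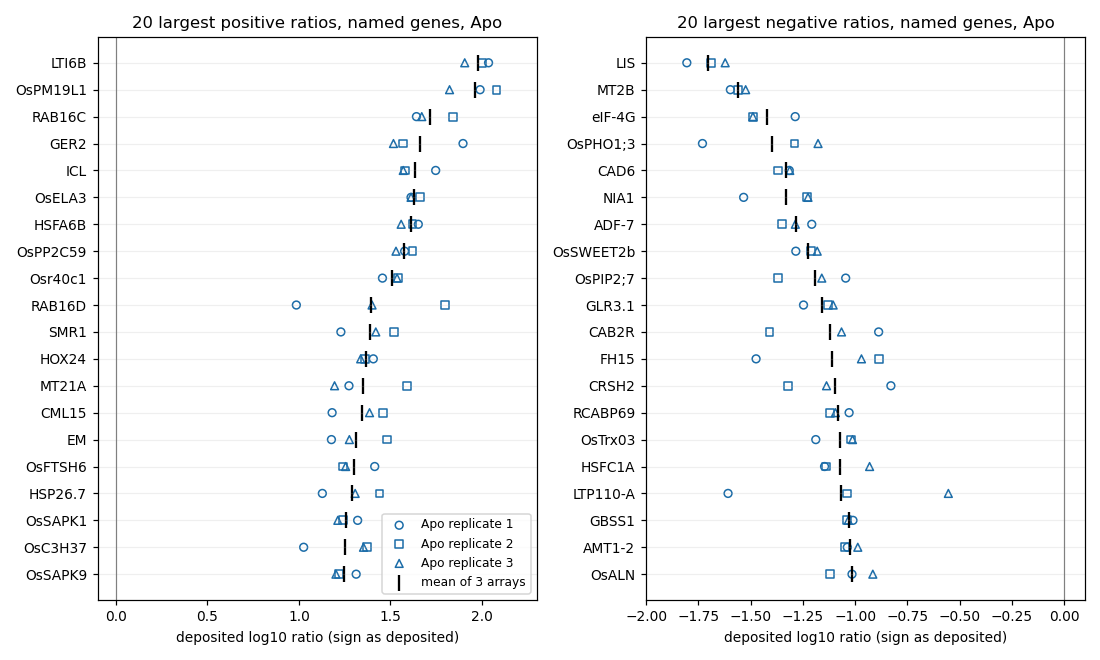
Deposited log10 ratios of the 20 named genes with the largest positive (left) and negative (right) means among probes past the test in Apo, 1 row per gene. Open symbols are the 3 Apo arrays and black ticks their means; the arrays of 1 gene mostly lie close together, with RAB16D, LTP110-A and FH15 spread the most.

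Genes of the ABA pathway lay mostly on the positive side at the level of kinases and protective proteins. The bZIP list and the list of all protein phosphatases 2C, only a clade of which acts in the pathway, were split. All 6 probes for LEA proteins and dehydrins were positive, with a median of 1.27. The dehydrin RAB16C read 1.64, 1.84 and 1.67 on replicates 1 to 3, RAB16B read 1.15, 1.35 and 1.16, and Dhn1 read 0.732, 1.11 and 0.962. All 3 were highest on replicate 2. The related rab25 read 1.24, 1.11 and 1.10, highest on replicate 1. EM, a LEA protein first known from seeds, read 1.18, 1.48 and 1.28. The lowest single reading of the 6 genes was the 0.732 of Dhn1 on replicate 1. IR64 had 5 positive calls of 6 and a median of 1.06; of all probes 43.0% passed in IR64, 22.7% positive and 20.2% negative.

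The SnRK2 kinases, called SAPK in rice, had 8 positive and 1 negative probes of 12, against the background share of 24.5% positive. OsSAPK1 read 1.32, 1.24 and 1.21, and OsSAPK9 read 1.31, 1.22 and 1.20. Both were above 1 on all 3 arrays, while OsSAPK4 averaged 0.648 ± 0.0605 and 0.651 ± 0.0662 on its 2 probes and OsSAPK10 0.534 ± 0.0516. OsSAPK7 was the negative member at -0.202 ± 0.0462, which no longer passed without Apo replicate 2 (adjusted p = 0.0538). The receptor OsPYL11 was negative too, at -0.279 ± 0.0577 (adjusted p = 0.00487), and ABA8OX1, an enzyme that breaks down ABA, positive at 0.378 ± 0.0857 (adjusted p = 0.00163). Protein phosphatases 2C, of which a clade blocks the SnRK2 kinases, had 16 positive and 19 negative probes of 53. That clade was not separated from the others, so these counts do not describe the phosphatases of the ABA pathway alone. OsPP2C59 read 1.58, 1.62 and 1.53, OsPP2C51 averaged 1.02 ± 0.149, OsPP2C30 0.775 ± 0.00987 and OsPP2C29 0.707 ± 0.0720, while OsPP2C01 and OsPP2C05 were the most strongly called negative members at -0.684 ± 0.0180 and -0.644 ± 0.0288. Their positive calls numbered 9 without Apo replicate 2 and 10 without Apo replicate 3.

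Among 15 probes of the bZIP list, 6 were positive and 3 negative. The positive ones include MODD, which acts on a bZIP factor rather than being one and had the highest mean of the list. BZIP23, an activator of ABA-responsive genes, read 0.578, 0.642 and 0.567, and MODD, known in rice as a repressor acting on that factor, 0.949, 0.956 and 0.895. Both exceeded 0.5 on all 3 arrays. The most strongly called negative member was OsbZIP37 at -0.525 ± 0.0266; without Apo replicate 1 or 3 a single negative call was left. Of 9 probes for DREB and other AP2/ERF factors, which bind dehydration-responsive promoters, 2 were positive and none negative, or 1 negative without IR64 replicate 1. DREB2A read 0.626, 0.559 and 0.549. DREB2C read 1.39, 0.381 and 0.864, and its call was lost without replicate 1 (adjusted p = 0.171) or 3 (0.0977). Enzymes of proline, polyamine and osmolyte synthesis had 7 positive and 1 negative probes of 11. Ornithine aminotransferase (OAT) averaged 0.637 ± 0.0425 and 0.744 ± 0.179 on its probes, and OsP5CS2 of proline synthesis read 0.654, 0.717 and 0.553, while the proline transporter OsproT was negative at -0.248 ± 0.101. Without Apo replicate 1 or 2 their positive calls numbered 4.

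Transcription factors of stress lay mostly on the positive side in the NAC and heat shock factor families. NAC factors, regulators of stress and leaf ageing, had 8 positive and 1 negative probes of 11 and a median of 0.336, against 4 and 1 and a median of 0.0576 in IR64. On IR64 replicates 1 to 3 the median of the list was 0.303, -0.0391 and -0.0880. NAC2 read 0.508, 0.567 and 0.565, and NAC071 0.516, 0.283 and 0.273 on 1 probe. Its second probe read 0.333, 0.344 and 0.346. NAC067 went the other way with -0.536, -0.394 and -0.376. The positive NAC calls numbered 5 whichever Apo array was left out. Heat shock factors, which switch on chaperone genes, had 11 positive and 3 negative probes of 20. HSFA6B read 1.65, 1.62 and 1.56, HSFB2B averaged 0.939 ± 0.0638, HSFC2A 0.776 ± 0.0588 and HSFB2C 0.4996 ± 0.0354. HSFC1A and HSFA4D stood on the negative side at -1.07 ± 0.123 and -0.340 ± 0.03996, so members of class A and of class C were found on both sides. Without Apo replicate 2 the factors had 7 positive calls. Their targets, small heat shock proteins with HSP90, HSP70 and ClpB, had 11 positive and 2 negative probes of 19; CLPB1, a disaggregase, read 0.730, 0.680 and 0.672 and HSP23.2 0.785, 0.877 and 0.754, while HSP17.9B averaged -0.431 ± 0.141.

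Other factor families were spread over both sides. Homeodomain factors had 14 positive and 9 negative probes of 40: HOX7 averaged 0.892 ± 0.0782, hox29 0.672 ± 0.0832 and Hox9 0.849 ± 0.225, whereas Hox21 averaged -0.714 ± 0.237 and Hox16 -0.620 ± 0.0576. All 5 WRKY probes passed. OsWRKY71, OsWRKY24 and WRKY9 were positive at 0.566 ± 0.0497, 0.207 ± 0.0508 and 0.198 ± 0.0261, and OsWRKY76 and OsWRKY62, known as repressors of defence genes in rice, were negative at -0.809 ± 0.0853 and -0.527 ± 0.289. Of 9 MYB probes 3 were positive and 4 negative. LTR1 read 0.999, 1.15 and 1.11, and MYBAS1 -1.08, -0.901 and -1.001; without Apo replicate 1 there was 1 positive call. Zinc finger factors of the CCCH, DOF and stress-associated families had 26 positive and 8 negative probes of 71. OsC3H35 was positive on both its probes, at 0.644 ± 0.00592 and 0.778 ± 0.0857, and DOF4 negative at -0.619 ± 0.0188. Without Apo replicate 3 the family had 5 negative calls. MADS box factors, some of which time flowering, had 3 positive and 7 negative probes of 24, with MADS55 at -0.727 ± 0.0427, MADS50 at -0.499 ± 0.0307 and MADS22 at 0.236 ± 0.0107. Without Apo replicate 2 or 3 there was 1 positive MADS call.

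Chloroplast genes were mostly negative. Among 14 probes for light-harvesting, photosystem and electron transport proteins 12 were negative, none was positive, and the median was -0.336. RCABP69, a light-harvesting protein, read -1.03, -1.12 and -1.09, CAB2R -0.888, -1.41 and -1.07, and ndhM, a subunit of the plastid NDH complex, -0.758, -0.720 and -0.713. Replicate 2 gave the most negative reading for CAB2R, while the 3 arrays of ndhM lay within 0.1 of each other. For the making of chlorophyll 7 of 11 probes were negative and 1 positive, or 2 positive with the replicate number as a block. CHLP, which makes the phytyl tail, read -0.513, -0.711 and -0.657, and CHLH, of magnesium insertion, -0.625, -0.585 and -0.610. GSA, an early enzyme of the pathway, was the positive member at 0.310 ± 0.158 on 1 probe and did not pass on its other probe, at 0.0778. SGR and NYC1, which dismantle chlorophyll in ageing leaves, were on the opposite side to the synthesis genes, SGR with 0.383, 0.412 and 0.409, NYC1 with 0.380, 0.301 and 0.308. Neither gene passed in IR64, where they averaged -0.0887 ± 0.152 and -0.104 ± 0.161.

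Genes listed for carbon fixation were less uniform. Of 6 probes in the Calvin cycle list, 2 were negative and 1 positive. The list was drawn by gene name, so cytosolic forms of these enzymes, which act outside the cycle, are not separated from plastid forms. CFBP1, a fructose bisphosphatase, read -0.958, -0.978 and -0.957, and the aldolases ALDP and FBA3 averaged -0.201 ± 0.107 and 0.333 ± 0.0579. ALDP no longer passed without Apo replicate 2 (adjusted p = 0.151) or 3 (0.0932). FBA2, FBPase and the Rubisco activase OsrcaA1 did not pass, with means of 0.00289, -0.0377 and -0.122. In photorespiration, which recycles the product of Rubisco's oxygen reaction, 4 of 7 probes were negative and 2 positive. The glycine cleavage protein GDCSH read -0.890, -0.899 and -0.896, with an SD of 0.00482 among the smallest of any named gene, and the glycolate oxidase GLO4 -1.08, -0.804 and -0.767. GLO3, of the same family, went the other way with 0.824, 0.571 and 0.533. The probes of GLO1 disagreed, at 0.217 ± 0.0188 and -0.337 ± 0.0804, and 1 of the 2 probes of GLO5 averaged -0.685 ± 0.111, while the other, at -0.188 ± 0.388, passed only with the replicate number as a block (adjusted p = 0.0336). Among the chloroplast synthases of the alarmone ppGpp, CRSH2 read -0.829, -1.32 and -1.14 and OsRSH1 averaged -0.279 ± 0.0457, whereas OsRSH3 averaged 0.597 ± 0.0560; CRSH3 and both probes of OsRSH2 did not pass, at 0.102, 0.0771 and 0.0796. Both OsRSH2 probes passed without IR64 replicate 1 (adjusted p = 0.0381 and 0.0351).

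**Figure D2:**
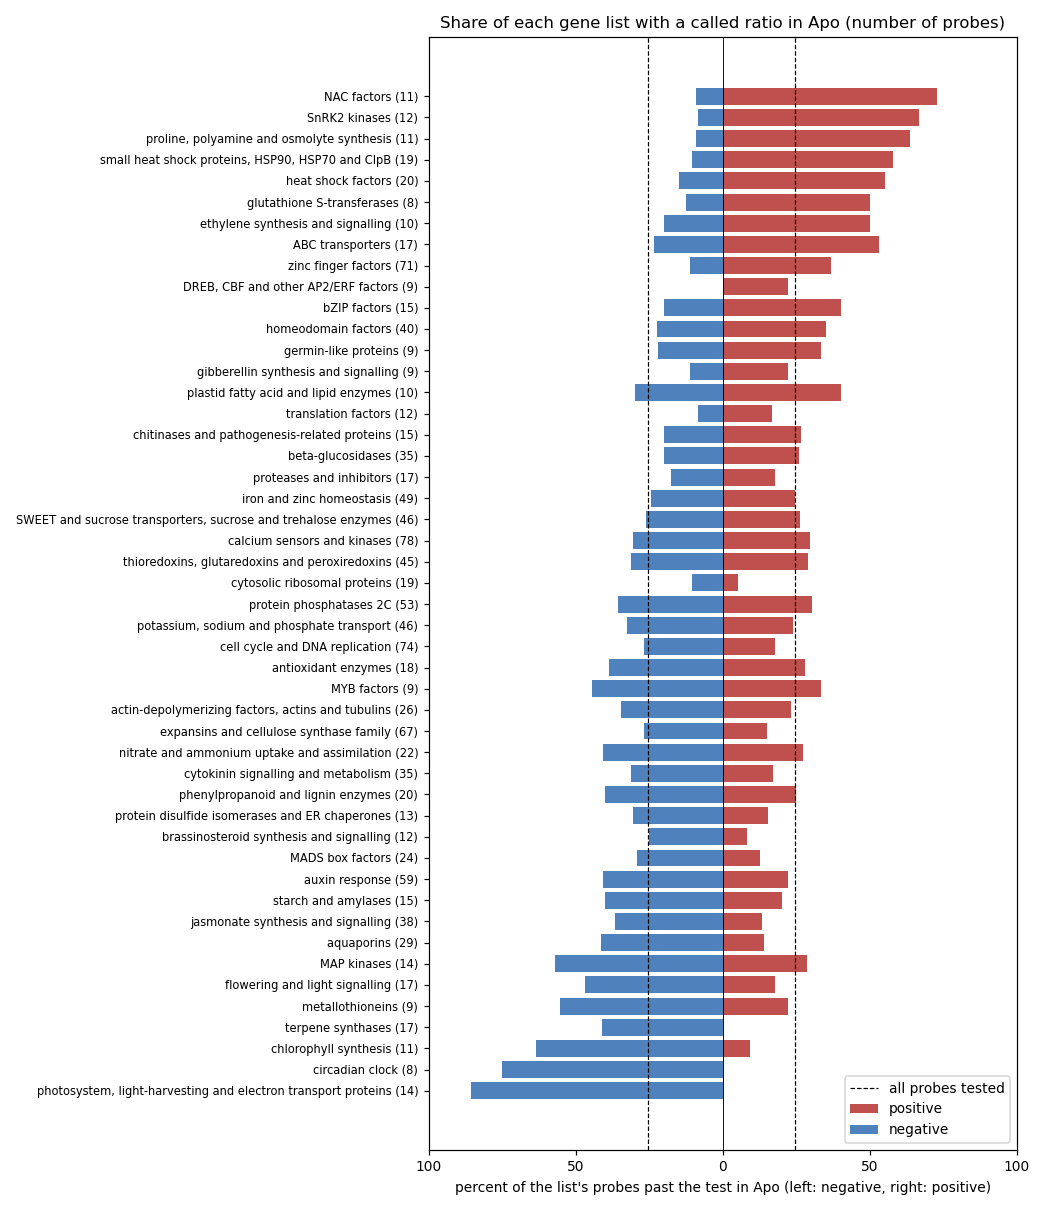
Percent of the probes of each gene list with at least 8 probes that passed the test in Apo, positive to the right and negative to the left, with the number of probes in brackets. Dashed lines mark the 24.5% positive and 25.6% negative of all probes tested; NAC factors and SnRK2 kinases reach farthest to the right and photosystem proteins and the circadian clock farthest to the left.

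Clock genes were negative on 6 of 8 probes, and none was positive. The pseudo-response regulator OsPRR37, a daily repressor in the clock and a flowering gene, read -0.560, -0.630 and -0.610 on 1 probe. Its second probe read -0.662, -0.659 and -0.641. OsPRR73 averaged -0.345 ± 0.0277 and -0.263 ± 0.0423, OsPRR95 -0.305 ± 0.0510 and GI, a clock and flowering protein, -0.186 ± 0.0157. OsPRR1 and the morning factor CCA1 did not pass, at 0.0819 ± 0.0206 and -0.0308 ± 0.228; OsPRR1 passed without IR64 replicate 1 (adjusted p = 0.0235). The labels give no hour of harvest for the stressed or the well-watered leaves, and the part of an unequal hour in these ratios was not tested. Among 17 probes of flowering and light signalling, which include OsPRR37 and GI again, 8 were negative and 3 positive. The phototropin Osnph1b averaged -0.338 ± 0.0588 and the flowering regulator HDR1 -0.413 ± 0.0530. The positive calls of CRYD, PhyB and Ehd4, at 0.290, 0.146 and 0.0868, were lost whichever Apo array was left out, with adjusted p-values of 0.0525 to 0.155.

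Nitrogen and sugar genes were called on both sides. Nitrogen uptake and assimilation had 9 negative and 6 positive probes of 22. The ammonium transporter AMT1-2 read -1.04, -1.05 and -0.987, and AMT1 read -0.828, -1.02 and -0.908. The nitrate transporter NRT2.3 averaged -0.662 ± 0.0622, and Fd-GOGAT, the chloroplast glutamate synthase, read -0.559, -0.830 and -0.821. The arrays of AMT1-2 spread least of these. On the positive side were the glutamate dehydrogenases GDH3 and GDH2, which can release ammonium from glutamate, at 0.801 ± 0.131 and 0.568 ± 0.0465, and the transporter AMT2-1 at 0.394 ± 0.0737. The probes of nitrate reductase NIA1 disagreed: 1 read -1.53, -1.23 and -1.23 and the other 0.317, 0.247 and 0.268.

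Sucrose and trehalose enzymes and SWEET and sucrose transporters had 12 positive and 12 negative probes of 46, close to the shares of all probes. Single members were far from 0. Sucrose synthase OsSUS4, which splits sucrose, read 1.16, 1.16 and 1.12, and the sugar exporter OsSWEET15 1.29, 1.17 and 1.17. Both exceeded 1.1 on all 3 arrays. The exporter OsSWEET4 averaged 0.507 ± 0.0566 and the sucrose phosphate synthase OsSPS4F 0.531 ± 0.0736, while OsSWEET2b and OsSWEET1a averaged -1.23 ± 0.0528 and -0.808 ± 0.116, another sucrose phosphate synthase, OsSPS2, -0.493 ± 0.0146 and the trehalose phosphatase OsTPP1 -0.757 ± 0.122. A second probe of OsSWEET1a did not pass, at -0.0611. In starch metabolism 3 probes of 15 were positive and 6 negative. GBSS1, which makes amylose, read -1.01, -1.04 and -1.03 on 1 probe and, less negative, -0.377, -0.666 and -0.368 on the other. The starch synthase SS2 averaged -0.706 ± 0.0598, while AGP1, of ADP-glucose synthesis, averaged 0.834 ± 0.103 and the amylase AMY1.5 0.506 ± 0.0295. Without Apo replicate 1 or 2 the starch genes had 3 negative calls.

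Water channels were mostly negative where they passed, with 12 negative and 4 positive of 29 probes. The plasma membrane channel OsPIP2;7 read -1.05, -1.37 and -1.16, OsPIP2;2 read -0.973, -0.968 and -0.948, and OsPIP1;3 read -0.855, -0.683 and -0.669. The channel OsSIP2;1 averaged -0.485 ± 0.0547. All 9 readings of these PIP channels lay below -0.6. The tonoplast channel OsTIP4;1 and NIP4-1 were positive at 0.484 ± 0.0181 and 0.356 ± 0.116. The 2 probes of OsPIP1;1 disagreed, at 0.294 ± 0.0741 and -0.275 ± 0.0838. Of 46 probes for potassium, sodium and phosphate transport 11 were positive and 15 negative. The potassium carrier HAK17 read -1.12, -0.931 and -0.976, the vacuolar channel TPKA averaged -0.676 ± 0.0418, and the phosphate carrier OsPht1;4 averaged -0.475 ± 0.0170 and -0.570 ± 0.0185 on its probes. HAK25, of the same carrier family as HAK17, was positive at 0.619 ± 0.0249, and so were HAK12 and HAK14 at 0.407 ± 0.0575 and 0.342 ± 0.0503.

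Iron and zinc genes had 12 positive and 12 negative probes of 49. The zinc transporters OsZIP4 and OsZIP3 were positive at 0.976 ± 0.0710 and 0.390 ± 0.0264, as were the manganese and metal carriers MTP7 and NRAMP6 at 0.680 ± 0.0241 and 0.516 ± 0.0232. The iron transporter IRT1, the metal chelate carrier osysl16 and the vacuolar iron transporter OsVIT1 were negative at -0.864 ± 0.03997, -0.802 ± 0.0356 and -0.480 ± 0.0202. A further probe of MTP7 did not pass, at 0.109. Metallothioneins, small metal-binding proteins, held both extremes: MT21A read 1.27, 1.59 and 1.19 and MT2B -1.60, -1.56 and -1.52, and of 9 probes 2 were positive and 5 negative. MT1B averaged 0.504 ± 0.370, with 0.931, 0.302 and 0.280 on the arrays, and without replicate 1 had a mean of 0.291, still past the test (adjusted p = 0.0357). The negative calls of the list numbered 3 without Apo replicate 1. ABC transporters had 9 positive and 4 negative probes of 17. ABCG36, ABCG37 and ABCG45 averaged 0.987 ± 0.0481, 0.864 ± 0.205 and 0.767 ± 0.241, and mdr17 -0.829 ± 0.141. The 2 probes of ABCG42 disagreed, at -0.295 ± 0.0288 and 0.166 ± 0.0469.

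**Figure D3:**
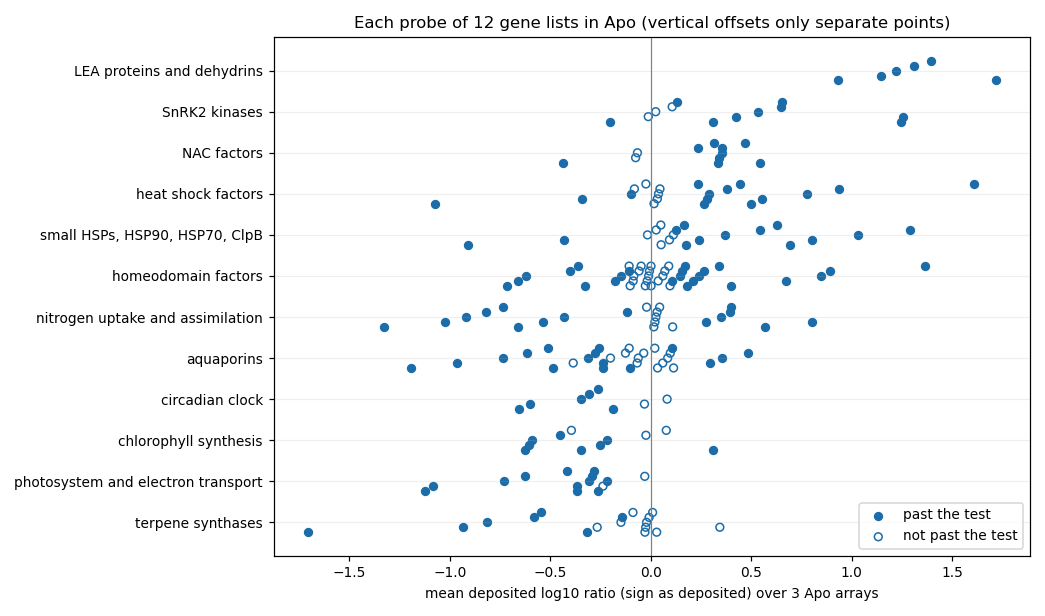
Mean deposited log10 ratio over the 3 Apo arrays of every probe in 12 gene lists, 1 row per list, filled where the probe passed the test and open where it did not. All 6 LEA and dehydrin probes lie above 0.9, while the photosystem probes that passed lie below 0.

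Among hormone genes other than those of ABA, negative calls outnumbered positive ones for auxin, cytokinin and jasmonate. Of all probes, 25.6% were negative and 24.5% positive. Auxin response genes had 24 negative and 13 positive probes of 59. The response factor ARF9 read -0.923, -0.901 and -0.802, and ARF1 (LOC4327785) read -0.844, -0.781 and -0.711. The efflux carrier OsPIN5a read -0.750, -0.958 and -0.849, below -0.7 on all 3 arrays like both factors. The repressors IAA9 and IAA6 and the factor ARF2 were positive, at 0.828 ± 0.0476, 0.547 ± 0.0133 and 0.729 ± 0.0855, so factors and repressors lay on both sides. ARF16 read 1.35, 0.822 and 0.928, with replicate 1 the highest. Without Apo replicate 1 or 3 the positive auxin calls numbered 8. Cytokinin genes had 11 negative and 6 positive probes of 35 and a median of -0.0291, a negative share not far above that of all probes. The activating enzyme LOGL3 averaged -0.703 ± 0.0780 and the response regulator OsRR9 -0.581 ± 0.0667, whereas the regulator ORR3 averaged 0.394 ± 0.0371 and 0.334 ± 0.0370 on its probes and the receptor HK3 0.358 ± 0.0587. LOG, a second activating enzyme, averaged -0.421 ± 0.0374 on 1 probe and did not pass on the other, at 0.0484.

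Jasmonate genes had 14 negative and 5 positive probes of 38. AOS1, which makes the precursor of the hormone, read -0.818, -0.857 and -0.796, and OPR10, an oxophytodienoate reductase, -0.724, -0.724 and -0.676. Repressors of the JAZ family were divided: JAZ11 and JAZ12 averaged 1.05 ± 0.250 and 0.8001 ± 0.164, and JAZ8 -0.373 ± 0.0485. JAZ4 averaged -0.435 ± 0.0203 on 1 probe and did not pass on the other, at 0.00499. In the ethylene list 5 probes of 10 were positive and 2 negative. ACS2, the rate-setting enzyme of ethylene synthesis, read 0.984, 0.984 and 0.658, lowest on replicate 3. The receptor ETR3 read -0.837, -0.651 and -0.705, and the receptor ERS2 -0.588, -0.627 and -0.537. A second ETR3 probe did not pass, at -0.0357. The other positive ethylene calls were small, and the positive calls numbered 1 without Apo replicate 1 and 2 without Apo replicate 2 or 3. Of 12 brassinosteroid probes 3 were negative, among them the factor BZR1 at -0.5998 ± 0.101 and the co-receptor BAK1 at -0.439 ± 0.0446, and 1 positive, or 2 positive without IR64 replicate 1. The gibberellin receptor gid1 was positive at 0.292 ± 0.0535, and the probes of GID2, of the same pathway, disagreed, at -0.469 ± 0.0569 and 0.165 ± 0.0660. The second probe no longer passed without Apo replicate 3 (adjusted p = 0.0678). Of 9 gibberellin probes 2 were positive and 1 negative, or 3 negative with the replicate block and 2 without Apo replicate 2.

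Redox enzymes were called on both sides. Of 18 probes for antioxidant enzymes 5 were positive and 7 negative. The superoxide dismutase sodA read 0.637, 0.701 and 0.694, catalase CatB read 0.659, 0.632 and 0.608, and the ascorbate peroxidase APX1 read 0.360, 0.422 and 0.411. The ascorbate peroxidases APX7 and APX8, known as chloroplast forms in rice, averaged -0.543 ± 0.101 and -0.314 ± 0.0268, and APX4 -0.352 ± 0.0182. The probes of APX2 disagreed, at 0.250 ± 0.0296 and -0.377 ± 0.0373, and the positive one was lost without Apo replicate 1 (adjusted p = 0.0599) or 2 (0.0528). Without Apo replicate 2 the list had 3 positive calls. Thioredoxins, glutaredoxins and peroxiredoxins had 13 positive and 14 negative probes of 45, or 8 positive without Apo replicate 3. The thioredoxins OsTrx03, OsTrxm5 and OsTrxy, types known from chloroplasts, averaged -1.07 ± 0.0994, -0.654 ± 0.0378 and -0.456 ± 0.0255. The glutaredoxins GRXC10 and GRXS4 were positive at 0.945 ± 0.215 and 0.427 ± 0.0150, and GRXS2 negative at -0.701 ± 0.0775. The glutathione S-transferases had 4 positive and 1 negative probe of 8, with GSTU6 at 0.395 ± 0.0822 on the most strongly called of its 3 probes and GSTZ5 at -0.259 ± 0.0494.

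Enzymes of defence compounds lay mostly on the negative side where they passed. Terpene synthases and related enzymes had 7 negative and no positive probe of 17, or 1 positive with the replicate number as a block. Besides LIS, CPS2 of diterpene phytoalexins read -0.978, -1.01 and -0.808, and DXR, of the plastid route to terpenes, -0.788, -0.840 and -0.822. Of 20 phenylpropanoid and lignin probes 8 were negative and 5 positive. The alcohol dehydrogenase CAD6 read -1.32, -1.37 and -1.31, and PAL06, of the entry enzyme of the pathway, -1.22, -0.684 and -0.665. Replicate 1 of PAL06 stood apart from the other two. The probes of CAD8C disagreed, at 0.218 ± 0.0940 and -0.787 ± 0.0427, and the first was lost without Apo replicate 2 (adjusted p = 0.0744). The positive calls numbered 3 without Apo replicate 1 and 2 without Apo replicate 2 or 3. Germin-like proteins, cell wall proteins of which some take part in defence, had 3 positive and 2 negative probes of 9. GER2 read 1.90, 1.57 and 1.52 and GER8 -0.922, -0.685 and -0.691.

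Growth genes were called on both sides. Expansins and the cellulose synthase family, which loosen and build walls, had 18 negative and 10 positive probes of 67. EXPB3, an expansin, read -1.02, -0.870 and -0.759, and the synthase CESA8 -0.811, -0.523 and -0.504. CESA1 averaged -0.563 ± 0.139 on 1 probe and did not pass on its other 2, at -0.126 and -0.0526, and the 2 probes of CSLF6 disagreed, at -0.510 ± 0.0689 and 0.329 ± 0.0442. Without Apo replicate 1 there were 11 negative calls, and without Apo replicate 2 or 3 there were 5 positive ones. Cell cycle and DNA replication genes had 20 negative and 13 positive probes of 74, with the cyclin CYCD4-2 at -0.924 ± 0.0991 and the origin recognition subunit ORC5 at -0.880 ± 0.154. The kinase CDKF-3 and the clamp loader subunit OsRFC4 were positive at 0.550 ± 0.0539 and 0.504 ± 0.0753. Their negative calls numbered 13 without Apo replicate 1 and 12 without Apo replicate 2. In the actin cytoskeleton the depolymerizing factors ADF-10 and ADF-7 lay on opposite sides. ADF-10 read 1.17, 1.27 and 1.08, and ADF-7 read -1.21, -1.35 and -1.29. Ribosomal proteins were called on few probes: of 19 probes 1 was positive and 2 negative, against 8 positive and 2 negative in IR64. Their list, meant for cytosolic forms, was drawn by gene name. Forms of organelles, possibly rps14 among them, are therefore not separated. RPL27 was negative on both its probes, at -0.754 ± 0.00966 and -0.356 ± 0.0810, and rps14 positive at 0.232 ± 0.0166 on 1 probe but not past the test on the other, at 0.0143. Without IR64 replicate 1, which enters the shared estimate of the spread, 3 were positive and 4 negative in Apo, while the replicate block gave 2 positive.

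Markers of cell types could be followed as ratios only. Leaf mesophyll markers had 5 negative and 1 positive probe of 7, and their median was -0.245, -0.563 and -0.373 on Apo replicates 1 to 3; they share CAB2R, RCABP69, OEE3 and GLO1 with the lists above. Root markers had 4 negative and 3 positive of 10, with 2 negative without Apo replicate 1 and 1 positive without Apo replicate 2 or 3. Counted in the same order there were, for vascular and secondary wall markers, 1 and 4 of 7, and for seed storage markers 1 and 1 of 6, or 2 and 2 with the replicate block and 0 positive without Apo replicate 2 or 3; the 1 anther marker, C6, did not pass at 0.0966 ± 0.103. The medians of these lists on Apo replicates 1 to 3 were 0.0387, -0.0558 and 0.00240 for root, 0.234, 0.222 and 0.239 for vascular and 0.0346, -0.0755 and -0.0256 for seed storage markers. The mesophyll median was negative and the vascular median positive on all 3 Apo arrays, and the part of a change in the make-up of the leaf in the ratios was not tested. BC1 (LOC4333114), of wall cellulose, averaged -0.529 ± 0.0905, a call lost without Apo replicate 1 (adjusted p = 0.0748) or 3 (0.0513), and Hox9, of leaf vascular tissue, 0.849 ± 0.225. Among the positive vascular calls, that of CESA7, at 0.181, was lost whichever Apo array was left out (adjusted p = 0.0580 to 0.183). CESA4, at 0.0950, did not pass with all arrays but passed without Apo replicate 1 (adjusted p = 0.0358).

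The most even ratios over the Apo arrays, among calls of at least 0.3 in size, belonged, within the 2395 probes with a gene name, to NAC074, OsBI-1, NIN1, PP2A1 and OsC3H35 on the positive side. NAC074 read 0.356, 0.353 and 0.352, OsBI-1, a suppressor of cell death, 0.397, 0.402 and 0.398, and NIN1, a neutral invertase that splits sucrose, 0.761, 0.758 and 0.766. Their SDs were 0.00171, 0.00256 and 0.00379, below that of the median call. On the negative side the most even were GDCSH, the silicon channel Lsi6 at -0.314 ± 0.00579, OsCASPL2C1 at -0.368 ± 0.00618, OsIDI2 at -0.350 ± 0.00776 and the ubiquitin ligase OsPUB75 at -1.01 ± 0.00779. A second probe of OsIDI2 and 2 further probes of Lsi6 did not pass, at -0.0781 for OsIDI2 and -0.1999 and -0.0673 for Lsi6. Because limma draws on all probes and both genotypes for the spread, a small SD did not make the smallest p: NAC074 had adjusted p = 0.0132, and lost its call whichever Apo array was left out (adjusted p = 0.0566 to 0.0675), while MT2B, with an SD of 0.0365 and a larger mean, had adjusted p = 4.40e-06.

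The Apo ratios were then set against those of IR64 in the same fit, in which a dye effect shared by all arrays cancels. The difference passed for 358 of 17727 probes, or 2.02%, with 0.773% positive (Apo above IR64 on the ratio scale) and 1.25% negative. Calls on the same side were more numerous: 5460 passed on the same side in both genotypes, which is 61.4% of the Apo calls and 71.7% of the IR64 calls, and 99 passed on opposite sides. The count of differences hung on single arrays. It was 11, 9 and 12 without Apo replicates 1, 2 and 3, 5959, 5 and 0 without IR64 replicates 1, 2 and 3, and 951 once the replicate number was fitted as a block. The differences below are therefore given with the single arrays.

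LIS, of terpene synthesis, had the largest negative difference among named genes, with -1.81, -1.69 and -1.62 in Apo and -0.554, -0.298 and -0.271 in IR64 on replicates 1 to 3, and it was among the genes that passed (adjusted p = 0.006004). GER2, the germin-like protein, had the largest positive one, with 1.90, 1.57 and 1.52 in Apo and 0.707, 0.0534 and 0.0951 in IR64 (adjusted p = 0.0332). In both genes the arrays of the genotypes did not overlap, as their choice required and as in 34.5% of all probes. IR64 replicate 1 was the IR64 array nearest to Apo in both. Ranks 9 to 12 of the positive differences were held by OsNPR3, OsWRKY24, SGR and TPKB. OsNPR3, of the salicylate response, read 0.157, 0.0999 and 0.295 in Apo and -0.258, -0.414 and -0.378 in IR64, and OsWRKY24 0.157, 0.204 and 0.259 in Apo and -0.286, -0.339 and -0.237 in IR64; both were positive on all Apo arrays and negative on all IR64 arrays. SGR, of chlorophyll breakdown, read 0.383, 0.412 and 0.409 in Apo and 0.0839, -0.150 and -0.1999 in IR64. TPKB, a vacuolar potassium channel, read 0.634, 0.375 and 0.455 in Apo and was listed at 0 on all 3 IR64 arrays. Their differences were 0.534 (adjusted p = 0.0286), 0.494 (0.0203), 0.490 (0.03998) and 0.488 (0.0340). For TPKB, whether the exact 0 values are measured ratios was not tested, and their SD of 0 adds no spread to the test. Against 0, OsNPR3 no longer passed in Apo without Apo replicate 1 (adjusted p = 0.0655) or 3 (0.114).

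On the negative side the corresponding ranks held ORC5, OsSWEET1a, NRAMP4 and JAZ8. ORC5, of DNA replication, read -0.869, -1.04 and -0.733 in Apo and -0.291, -0.448 and -0.278 in IR64, the sugar exporter OsSWEET1a -0.775, -0.938 and -0.713 in Apo and -0.446, -0.235 and -0.185 in IR64, and JAZ8, a jasmonate repressor, -0.427, -0.358 and -0.333 in Apo and 0.0665, 0.0391 and 0.0581 in IR64. On 1 of its probes the metal carrier NRAMP4 was positive in both genotypes and less so in Apo, with 0.197, 0.279 and 0.293 in Apo and 0.618, 0.785 and 0.813 in IR64. Another of its probes averaged 0.0301 in Apo, not past the test, and -0.121 in IR64, where it passed (adjusted p = 0.0332). The second probe of OsSWEET1a differed the other way, by 0.0540, without passing (adjusted p = 0.468). On the other 3 probes of NRAMP4, of which 1 did not pass in Apo either, at 0.0301, the genotypes differed by 0.0123, 0.00737 and 0.151, none past the test (adjusted p = 0.128 to 0.940), so both of these differences rest on 1 probe. The differences were -0.542 (adjusted p = 0.0433), -0.520 (0.0474), -0.482 (0.0307) and -0.427 (0.0203). JAZ8 was negative on all Apo arrays and positive on all IR64 arrays, and AOS1, of the same hormone pathway, was negative in both and more so in Apo, with -0.818, -0.857 and -0.796 in Apo and -0.486, -0.459 and -0.407 in IR64 (difference -0.373, adjusted p = 0.0234). In metal handling OsZIP4 and MTP7 had higher ratios in Apo, by 0.2999 and 0.370. The other MTP7 probes differed by 0.291 and 0.0410 without passing (adjusted p = 0.178 and 0.755). NAS1, which makes the chelator nicotianamine, was also higher in Apo, with 0.137, 0.155 and 0.0885 in Apo and -0.186, -0.328 and -0.246 in IR64. MT2C read -0.338, -0.324 and -0.283 in Apo and -0.0462, 0.0703 and 0.107 in IR64, and the glutaredoxin GRXS2 -0.745, -0.747 and -0.612 in Apo and -0.391, -0.405 and -0.372 in IR64. Second probes of MT2C and GRXS2 differed by -0.521 and -0.2002 without passing (adjusted p = 0.130 and 0.339). These genes passed with adjusted p-values of 0.0307 to 0.0488 for the difference, that of OsZIP4 only without the replicate block (adjusted p = 0.0515 with it). The Apo call of NAS1 against 0 (adjusted p = 0.0262) was lost whichever Apo array was left out (adjusted p = 0.0671 to 0.116).

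**Figure D4:**
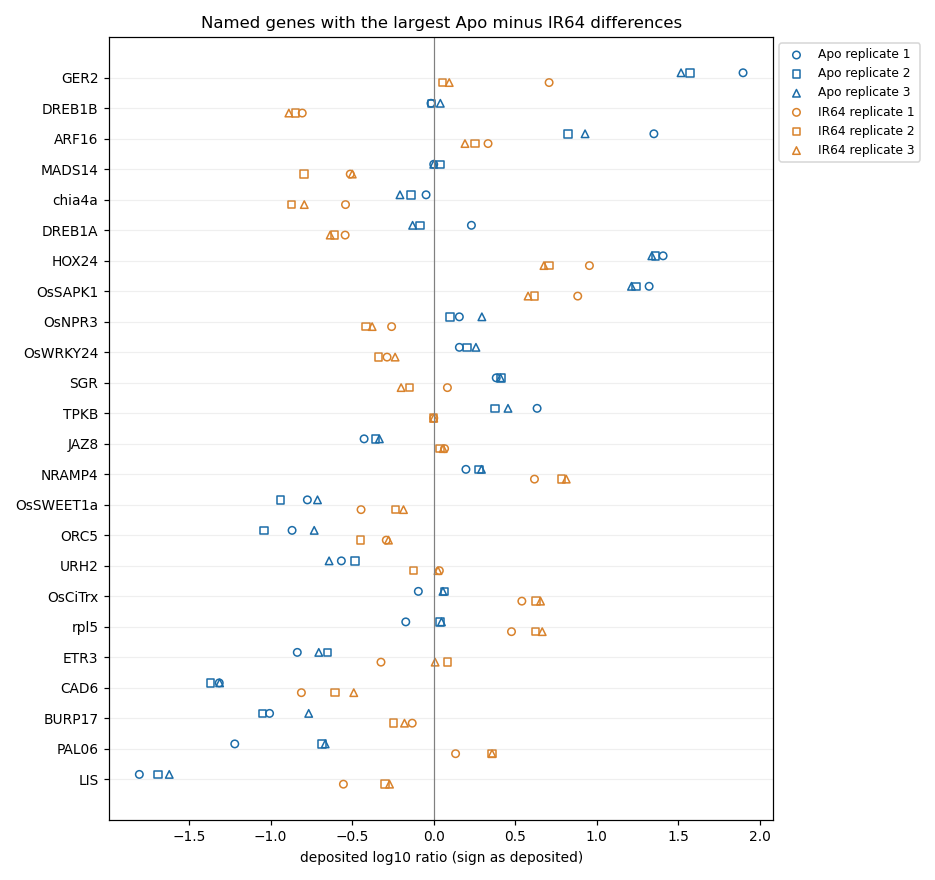
Deposited log10 ratios of the 24 named genes with the largest Apo minus IR64 differences, ordered from the most positive difference (top) to the most negative; blue symbols are the 3 Apo arrays and orange symbols the 3 IR64 arrays, offset below. The genotypes do not overlap in any row, which the choice of these genes required, and the IR64 replicate 1 circle often lies toward Apo.

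Several Apo ratios that look larger than those of IR64 did not pass for the difference. LTI6B read 2.04, 2.0 and 1.91 in Apo and 1.67, 1.06 and 1.12 in IR64 (difference 0.701, adjusted p = 0.0730), EM 1.18, 1.48 and 1.28 in Apo and 0.848, 0.205 and 0.159 in IR64 (0.907, 0.0645) and GBSS1 -1.01, -1.04 and -1.03 in Apo and -0.770, -0.122 and -0.0897 in IR64 (-0.701, 0.0856). In each of them IR64 replicates 2 and 3 lay farther from Apo than IR64 replicate 1, and without that array all 3 passed, with adjusted p-values of 0.00242, 0.00363 and 0.00199. Leaving out the IR64 array nearest to Apo widens a difference by construction, and 5959 of all probes then passed. These passes are therefore no separate evidence of a difference. The top of both rankings also held genes with differences close to 0: MT2B had a difference of -0.00578 (adjusted p = 0.940), OsALN of -0.00135 (0.993) and MT21A of 0.1003 (0.615), with standard errors of 0.0411, 0.0693 and 0.125.

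**Figure D5:**
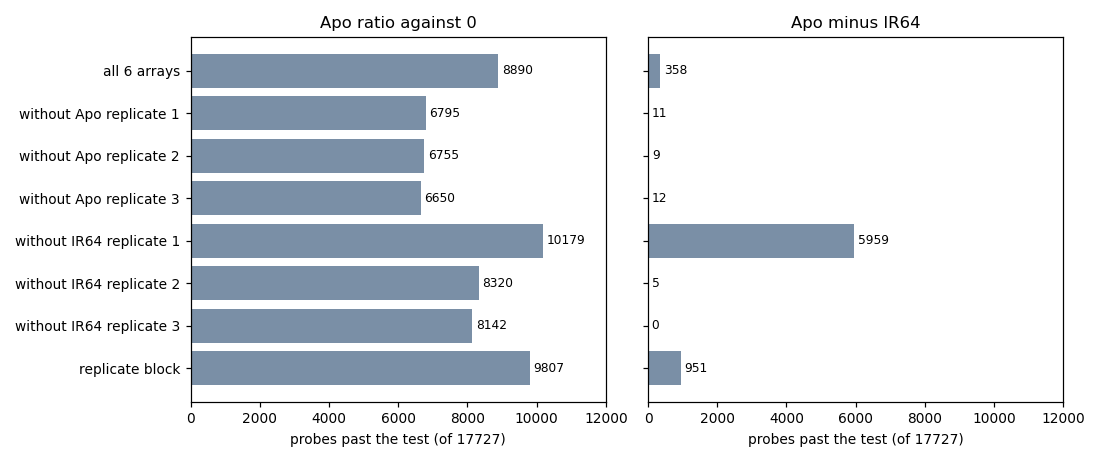
Number of the 17727 probes past the test for the Apo ratio against 0 (left) and for Apo minus IR64 (right) with all 6 arrays, without each array and with a replicate block. Apo calls stay between 6650 and 10179 without any 1 array, while the differences run between 0 and 5959.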

How the data were processed

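RNA of drought-stressed and well-watered leaves was hybridised together on 6 two-colour Agilent arrays, 3 of Apo and 3 of IR64. The values deposited are 1 log10 ratio per spot and array, from Agilent Feature Extraction 8.1 as the submitters' processing notes list it; their base, direction, dye correction and background correction are not stated in the labels or files. No counts or channel levels enter, so the number of arrays limits the precision. Values were used as deposited. Of 22575 spots, 17860 carry a gene in the platform annotation (17839 with 1 gene and 21 with several) and 4715 carry none; 133 of those annotated are at 0 on all arrays, which left 17727 probes for 15702 genes. Names came from GEO's platform annotation and RefSeq, which gave 2395 probes a gene name. Cross-hybridisation within gene families could not be measured.

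limma 3.58.1 in R 4.3.3 fitted 1 mean per genotype over all 6 arrays, with eBayes moderation, Benjamini-Hochberg adjustment over the 17727 probes and a threshold of 0.05; Apo minus IR64 was a contrast of that fit. Members and the 66 gene lists were chosen with earlier results of these data known. Named genes were the 20 with the largest Apo mean on each side, up to 4 called members with the smallest p on each side of a list (every member of lists of 8 probes or fewer), the 12 with the largest difference on each side and the 5 on each side with the smallest SD among means of at least 0.3. Other probes of a named gene are given where they disagree. Same-numbered arrays of Apo and IR64 deviated together from their group means (r = 0.322, 0.261 and 0.340), so the replicate number was also fitted as a block. Other alternatives changed the arrays, the scaling, the probes tested and the moderation. On simulated data for Apo against 0 over 17727 probes, 21%, 65.5% and 93% of 200 probes shifted by 0.15, 0.3 and 0.6 were recovered with the right sign. All other simulated probes had no shift, whereas 50.1% of probes were called in the data. The adjusted threshold was therefore stricter in the simulation, and these rates do not give the power of the reported test.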

Additional observations from a re-analysis of the deposited data

Results flagged for a closer look

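For the 33 named genes here the drought ratio differed between Apo and IR64 by limma's test of the difference (Benjamini-Hochberg adjusted p of 0.006004 to 0.0488); values are Apo minus IR64 log10 ratios. All 33 passed without IR64 replicate 1, but 5959 of all probes then passed, so these passes are no separate evidence of a difference. None passed without IR64 replicate 3, 1 without IR64 replicate 2, and 1, 1 and 3 without Apo replicates 1, 2 and 3. The adjusted p of limma's test of the difference was 0.00199 to 0.216 over the 6 left-out arrays. With scaled arrays 23 passed, and 14 in a fit of all spots. The differences on the positive side were GER2 1.38, DREB1B 0.851, ARF16 0.774, MADS14 0.615, chia4a 0.604, DREB1A 0.602, HOX24 0.589, OsSAPK1 0.564, OsNPR3 0.534, OsWRKY24 0.494, SGR 0.490, TPKB 0.488, OsC3H2 0.391, NAS1 0.380, HAK12 0.378, MTP7 0.370 and OsZIP4 0.2999. Those on the negative side were LIS -1.33, PAL06 -1.14, BURP17 -0.755, CAD6 -0.697, ETR3 -0.654, rpl5 -0.617, OsCiTrx -0.597, URH2 -0.543, ORC5 -0.542, OsSWEET1a -0.520, NRAMP4 -0.482, JAZ8 -0.427, HOX33 -0.413, AOS1 -0.373, MT2C -0.359 and GRXS2 -0.312.

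Second probes of ETR3, OsSWEET1a and HOX33 differed by -0.0147, 0.0540 and 0.00377 without passing (adjusted p = 0.909, 0.468 and 0.960), so these differences rest on 1 probe; that HOX33 probe averaged -0.00595 in Apo, not past the test, against -0.404 on the other. Among the genes whose single arrays have not been given, DREB1B, a factor of the cold and dehydration response, read -0.0167, -0.0139 and 0.0405 in Apo and -0.806, -0.848 and -0.888 in IR64. DREB1A, of the same family, read 0.231, -0.0843 and -0.130 in Apo and -0.543, -0.610 and -0.635 in IR64. The flowering factor MADS14 read 0, 0.0395 and 0 in Apo and -0.512, -0.794 and -0.499 in IR64. Whether its exact 0 values in Apo are measured ratios was not tested. BURP17, of a plant-specific family of secreted proteins, read -1.01, -1.05 and -0.767 in Apo and -0.132, -0.247 and -0.179 in IR64. PAL06 read -1.22, -0.684 and -0.665 in Apo and 0.134, 0.357 and 0.358 in IR64, and HAK12, a potassium carrier, 0.409, 0.464 and 0.349 in Apo and 0.135, -0.0312 and -0.0160 in IR64. None of these pairs of groups overlapped, as in all 358 probes past the test of the difference and 34.5% of all probes. This follows from the choice of the genes. HAK12 was the 1 gene of these not among the 12 largest differences of its side.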

How the results depend on the processing

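The count of Apo calls, 8890 with all arrays, stayed within 1.5 times when only Apo was fitted, when all spots were tested, when arrays were centred or scaled, when probes of a gene were averaged, with robust moderation, without probes listed at 0 (added after the data were seen) or with a replicate block, and ranged between 6650 and 10179 without single arrays. A further minimum size of 2-fold left 4184 calls if the base is 10 and 337 if it is 2, by construction. Differences between Apo and IR64 numbered 951 with the replicate block and 0 to 5959 without single arrays; the cause was not tested. The 0 differences without IR64 replicate 3 are limma's count at the adjusted threshold; 2589 probes had an unadjusted p under 0.05. IR64 calls ranged between 5076 and 8457 without single arrays. Of the named genes' calls against 0, the block took away those of a second OEE3 probe, OsSCR1, OsSSI2 and OsRPT5a (adjusted p of 0.0540 to 0.0755) and added those of a second GLO5 probe, GLUA-3 and GLUA-1 (0.0336 to 0.0450); it changed no other call against 0. Of their 33 difference calls the block took away 1, OsZIP4 (adjusted p = 0.0515), and it added 29. No named gene that passed changed sign under the left-out arrays, the block, centring, scaling or the fit of all spots. Signal over background is not in the values, so its effect on dim probes is unknown.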

Other observations

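Signalling kinases and calcium genes were called on both sides in Apo. Calcium sensors, pumps and kinases had 23 positive and 24 negative of 78 probes; the calcium pumps ACA5 and ACA7 were positive, ACA5 with 0.615, 0.647 and 0.663 and ACA7 with a mean of 0.653 ± 0.111, and the kinases CIPK17 and CIPK19 averaged -0.510 ± 0.0646 and -0.352 ± 0.0263. MAP kinases had 4 positive and 8 negative of 14 probes, with 5 negative without Apo replicate 2 and 4 without Apo replicate 3. Both probes of MAPK6, a kinase of stress and defence signalling, were negative at -0.597 ± 0.0560 and -0.589 ± 0.0582, while BIMK1 averaged 0.635 ± 0.0307 and MPK10 0.317 ± 0.124. Beta-glucosidases, some of which release hormones from sugar conjugates, had 9 positive and 7 negative of 35 probes; BGLU26 read 0.804, 0.836 and 0.839 and BGLU30 averaged 0.872 ± 0.198, while BGLU28 was negative on both probes, at -0.549 ± 0.0952 and -0.606 ± 0.146.

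Lipid transfer proteins had 4 positive and 1 negative of 6 probes, the negative call being lost without Apo replicate 1 or 2, with LTP-2 at 1.0 ± 0.112 and LTP2-A at 0.680 ± 0.318, whose arrays read 0.314, 0.872 and 0.855. BURP domain proteins had 1 positive and 2 negative of 5 probes, or 1 negative when any 1 Apo array or IR64 replicate 3 was left out, with BURP3 at 0.675 ± 0.219. The list labelled plastid fatty acid and lipid enzymes also holds MFP, of fat breakdown, so plastid enzymes are not separated from others in it. That list had 4 positive and 3 negative of 10 probes, or 1 negative without Apo replicate 3. MFP averaged 0.483 ± 0.0521 on 1 probe and did not pass on the other, at 0.0452, and pla2-II averaged -0.445 ± 0.107. Disulfide isomerases of the endoplasmic reticulum had 2 positive and 4 negative of 13 probes, the negative calls numbering 1, 2 and 2 without Apo replicates 1, 2 and 3 and 2 with scaled arrays; OsPDIL1-1 read 0.410, 0.424 and 0.414. Defence proteins such as chitinases had 4 positive and 3 negative of 15 probes; without Apo replicates 1, 2 and 3 the positive calls numbered 2, 2 and 1 and the negative 1, 3 and 1. Proteasome subunits, proteases and inhibitors had 3 positive and 3 negative of 17, all under 0.25 in size; without Apo replicates 1, 2 and 3 the positive calls numbered 1, 0 and 1 and the negative 1, 0 and 0. Translation factors had 2 positive and 1 negative of 12 probes, or 5 positive with the replicate block or without IR64 replicate 1, where 2 were negative; without IR64 replicate 2 there was 1 positive call, and 0 when any 1 Apo array was left out. Of 4715 spots to which no gene is assigned here, 1108 were positive and 648 negative in Apo in a fit of all spots, which is 37.2% called, against 46.4% of all 22575 spots in that fit.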
